A study of Rattus norvegicus with 9 samples.

Results

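The cluster that runs from miR-322 to miR-450 is a set of miRNA hairpins on the rat X chromosome. Its 10 members here are rno-miR-322-5p and rno-miR-322-3p, rno-miR-503-5p and rno-miR-503-3p, rno-miR-542-5p and rno-miR-542-3p, rno-miR-450b-5p and rno-miR-450b-3p, and rno-miR-450a-5p and rno-miR-450a-3p, written from here on without the species prefix. They were taken by name from the 726 miRNA rows of the deposited table, and all 10 were present. Levels were read by small RNA sequencing of total RNA from primary wild-type cartilage progenitor cells cultured from rat condylar cartilage. P3 was passage 3 cells, the control; P9 was passage 9 cells, the replicative senescence group; FFSS was passage 3 cells under flow fluid shear stress. Each group had 3 libraries. The age and sex of the animals, the number of animals and the strength and length of the flow are not given in the labels. The labels also leave unsaid if the replicates of a group are separate animals or cultures, so each p-value reflects only how far these libraries spread, which may be technical.

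Library totals ran from 2878910 to 8862560 miRNA reads, with FFSS replicates 1 and 3 the shallowest. P9 replicate 3 stood apart from the other P9 libraries in many of the values that follow, and the values it moves most are also given without it. The cartilage miRNAs miR-140 and miR-455, both arms, were present in every group, summing to 4150 to 7370 CPM (the count scaled to a common library total) in P3, 2590 to 3847 CPM in P9 and 6077 to 7202 CPM in FFSS. A list of 8 muscle miRNAs summed to 212 to 251 CPM in P3 and to 289.7 to 576 CPM in FFSS. In P9 it summed to 236, 218 and 583 CPM, the last in replicate 3. A list of 7 blood miRNAs summed to 75.8 to 157 CPM in P3, 69.6 to 308 CPM in P9 and 167 to 592 CPM in FFSS. The endothelial pair summed to 386 to 406 CPM in P3 and 556 to 695 CPM in FFSS, and the liver miRNA miR-122-5p had 9.87 to 11.7 CPM in P3 and 15.5 to 51.4 CPM in FFSS. The muscle, blood, endothelial and liver values were thus all higher in FFSS than in P3 without overlap. The epithelial list, at 81.1 to 102 CPM in P3 and 90.4 to 226 CPM in FFSS, overlapped. So did the nervous system list, at 534 to 1168 CPM and 565 to 1373 CPM. Of all miRNAs tested singly, 18.9% were higher in FFSS than in P3 without overlap. Of the 15 muscle and blood miRNAs, miR-144-3p was at 0 reads throughout P3, miR-208b-3p throughout P9 and miR-208a-3p throughout FFSS. The part of other cell types in the cluster's values was not tested.

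A miRNA hairpin is cut from a longer transcript, and either arm of its stem can be loaded into an Argonaute protein, where bases 2 to 8, the seed, lead the pairing with target mRNAs. Hairpins that lie close together are commonly cut from 1 shared transcript, so their arms start from a common supply. miR-322 is the rodent counterpart of human miR-424. With miR-503 it is known to repress cyclins and CDC25A and to slow the cell cycle, as the related miR-15 and miR-16 do, and both are induced as muscle precursors leave the cycle. miR-542-3p is known to repress survivin, a protein needed for cell division.

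In RefSeq, build GRCr8, the cluster occupied chrX:137720933-137726241 on the minus strand, a span of 5309 bases with 6 hairpins. The deposited table gives no coordinates, and its submitters name the build Rnor_6.0, so the positions serve only for order and spacing. Read 5′ to 3′ the order was Mir322, Mir503, Mir351, Mir542, Mir450b-1 and Mir450a1. Only 220 bases separated Mir322 from Mir503 and 54 bases Mir450b-1 from Mir450a1, whereas 2861 bases lay between Mir351 and Mir542. miR-351, the rodent hairpin in the middle, is not a member by name and is given beside the members as the rest of the cluster.

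The mature sequences below, from RefSeq, are the arms on which the results turn, 5′ to 3′, with the seed in capitals. They are shown because neighbouring hairpins at either end of the cluster share all or most of a seed, and because the seed of miR-322-5p is also found outside the cluster.

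miR-322-5p: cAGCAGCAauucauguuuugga

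miR-16-5p: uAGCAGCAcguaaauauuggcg

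miR-503-5p: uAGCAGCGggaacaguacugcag

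miR-322-3p: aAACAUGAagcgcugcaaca

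miR-542-3p: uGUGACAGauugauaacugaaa

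miR-450b-5p: uUUUGCGAuguguuccuaaua

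miR-450a-5p: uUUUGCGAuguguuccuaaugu

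miR-351-5p: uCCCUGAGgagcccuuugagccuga

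miR-322-5p carried the seed of miR-16-5p, shared here also by miR-15b-5p, miR-195-5p and miR-497-5p. miR-503-5p matched miR-322-5p at bases 2 to 7 and differed in the last base of the seed (A8G, counted from 1 at the 5′ end, miR-322-5p first). miR-450a-5p and miR-450b-5p were identical over their first 20 bases and differed by G21A, counted the same way with miR-450a-5p first, and miR-450a-5p was the longer, at 22 against 21 bases. A read of this sequence that stops before base 21 could belong to either, and the sources used here do not say how the authors divided such reads. These rows were therefore also summed. miR-351-5p had the seed of miR-125a-5p and miR-125b-5p, and miR-322-3p and miR-542-3p shared theirs with no other row that had a RefSeq sequence.

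The cluster was a small part of the libraries. Its 10 arms together took 0.0442% to 0.0508% of the reads in P3, 0.0378% to 0.0712% in P9 and 0.0288% to 0.0312% in FFSS. miR-450a-5p had the most reads, with rank 116 of 726 rows by mean CPM, followed by miR-450b-5p at rank 133, miR-322-3p at 156, miR-542-3p at 175 and miR-322-5p at 241. The other 5 arms ranked from 320 to 421. In P3 the levels of miR-450a-5p, at 206 ± 6.76 CPM (SD, n = 3), lay above those of miR-450b-5p, at 117 ± 6.32 CPM, in all libraries. miR-322-3p, at 56.3 ± 3.54 CPM, and miR-542-3p, at 57.8 ± 19.5 CPM, overlapped and did not differ beyond their spread. miR-322-5p stood lower, at 14.9 ± 6.16 CPM, then miR-503-3p at 6.18 ± 0.69 CPM and miR-503-5p at 3.77 ± 0.393 CPM. The arms with the fewest reads, miR-450b-3p, miR-450a-3p and miR-542-5p, had 1.04 to 2.69 CPM on average. miR-450b-3p overlapped each of the others, whereas miR-542-5p, at 0.66 to 1.66 CPM, lay below miR-450a-3p, at 2.26 to 2.92 CPM. Ligation during library making favours some ends over others, so the order across arms is one of reads rather than molecules.

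**Figure D1:**
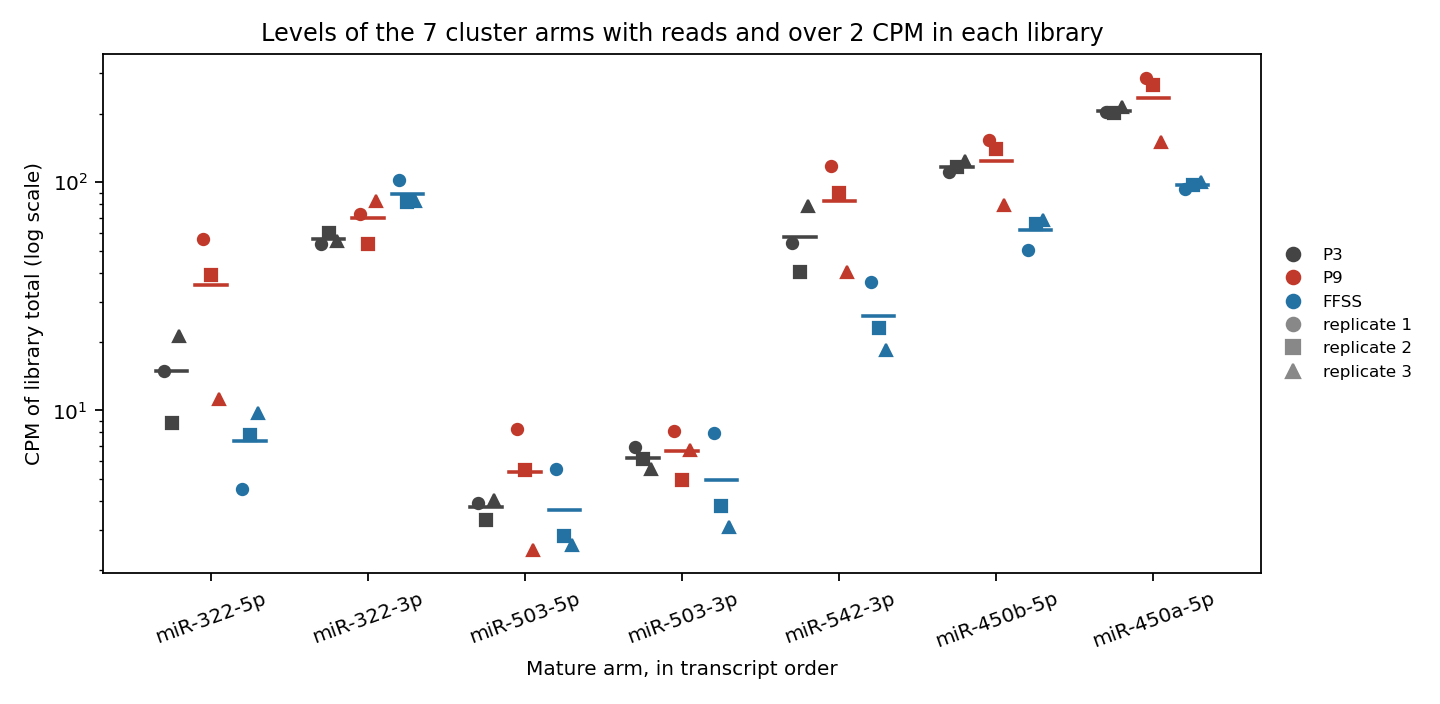
Level of each of 7 arms in each library, in CPM on a log scale, with P3 in black, P9 in red and FFSS in blue; symbols give the replicate and bars the group mean. The FFSS points lie below all P3 points for miR-542-3p, miR-450b-5p and miR-450a-5p and above them for miR-322-3p.

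Shear-stressed cells had less miR-450a-5p and miR-450b-5p, the 5p arms at the 3′ end of the cluster. miR-450a-5p, the member with the most reads, had 202, 202 and 214 CPM in P3 and 93.8, 97.6 and 99.8 CPM in FFSS. All FFSS libraries lay under all P3 libraries, and the spread within either group was small beside the gap. The level fell by 1.13 on the log2 scale (SE 0.30, edgeR quasi-likelihood test, Benjamini-Hochberg adjusted p = 0.0250).

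Its near copy miR-450b-5p had 111, 117 and 124 CPM in P3 and 50.7, 65.7 and 68.0 CPM in FFSS, again without overlap. It fell by 0.99 (SE 0.30, adjusted p = 0.0399). Summed, both rows had 314, 318 and 337 CPM in P3 and 144, 163 and 168 CPM in FFSS, a log2 fold change of -1.04 (SE 0.29, adjusted p = 0.0304). Since their reads may be shared, both rows are best read as 1 result.

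miR-542-3p had 54.0, 40.4 and 78.9 CPM in P3 and 36.5, 22.9 and 18.5 CPM in FFSS. The groups did not overlap, but the P3 libraries differed among themselves almost as much as the groups did, and the log2 fold change of -1.18 (SE 0.43) had an adjusted p of 0.0717. It passed without FFSS replicate 1 (-1.67, adjusted p = 0.0267), without P9 replicate 3 (0.0215), with no filter (0.0277) and in DESeq2 (0.0485). These were 4 of 20 alternatives. Over the fits without 1 library its value ran from -1.67 to -0.89 and its adjusted p up to 0.243.

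The arms of miR-322 went opposite ways. miR-322-5p had 14.9, 8.77 and 21.1 CPM in P3 and 4.52, 7.77 and 9.75 CPM in FFSS, where the highest FFSS library lay above the lowest P3 library. Its log2 fold change was -1.07 (SE 0.52, adjusted p = 0.157), and only without P9 replicate 3 did it pass (adjusted p = 0.0272). miR-322-3p had 53.4, 60.2 and 55.2 CPM in P3 and 102, 82.0 and 82.6 CPM in FFSS, all higher than in P3. At a log2 fold change of 0.62 (SE 0.31, adjusted p = 0.169) it did not pass either.

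For miR-503 the FFSS libraries ranged from 2.57 to 5.56 CPM on the 5p arm and from 3.08 to 7.99 CPM on the 3p arm, spanning the P3 values of 3.32 to 4.06 CPM and 5.53 to 6.90 CPM. In FFSS replicates 1 and 3, miR-503-5p rested on 16 and 10 reads. The log2 fold changes were -0.11 (SE 0.49, adjusted p = 0.895) and -0.36 (SE 0.44, adjusted p = 0.564). The sparse arms miR-542-5p, miR-450b-3p and miR-450a-3p stood at 0.78, 0.66 and -0.71 with SE of 0.48 to 0.72, and none passed. miR-450a-3p had 0 reads in FFSS replicate 3, which allows up to 0.77 CPM at a floor of 3 counts.

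All 10 members passed the filter on low counts. Counted over the list, 2 of 10 passed the test under shear stress, both lower, beside 20.5% of all 439 miRNAs tested, 13.7% lower and 6.83% higher. The share called was near that of the whole table and is no result about the members. The median log2 fold change of the 10 was -0.54, against 0.02 over all tested. The groups did not overlap for 3 members on the lower side and 1 on the higher side, where 41.5% of all miRNAs did not overlap, 22.6% lower and 18.9% higher. DESeq2, which called 26.7% of all miRNAs here, called miR-542-3p as well. Leaving out P3 replicate 2 (adjusted p = 0.0530) or FFSS replicate 3 (0.0872) ended the call on miR-450a-5p. That on miR-450b-5p ended when any 1 of the P3 libraries (0.0606, 0.0791 and 0.0803) or FFSS replicate 3 (0.112) was left out. It also ended with library size as the only scaling (0.0652), with rows kept from 50 counts on average (0.0525) and on log2(TPM + 1) (0.0666) and log2(TPM + 10) (0.0646). P9 replicate 3 enters this comparison only through the shared spread, the row filter and the scaling. Without it 4 members passed, all lower, but 32.6% of the 451 miRNAs then tested were called.

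**Figure D2:**
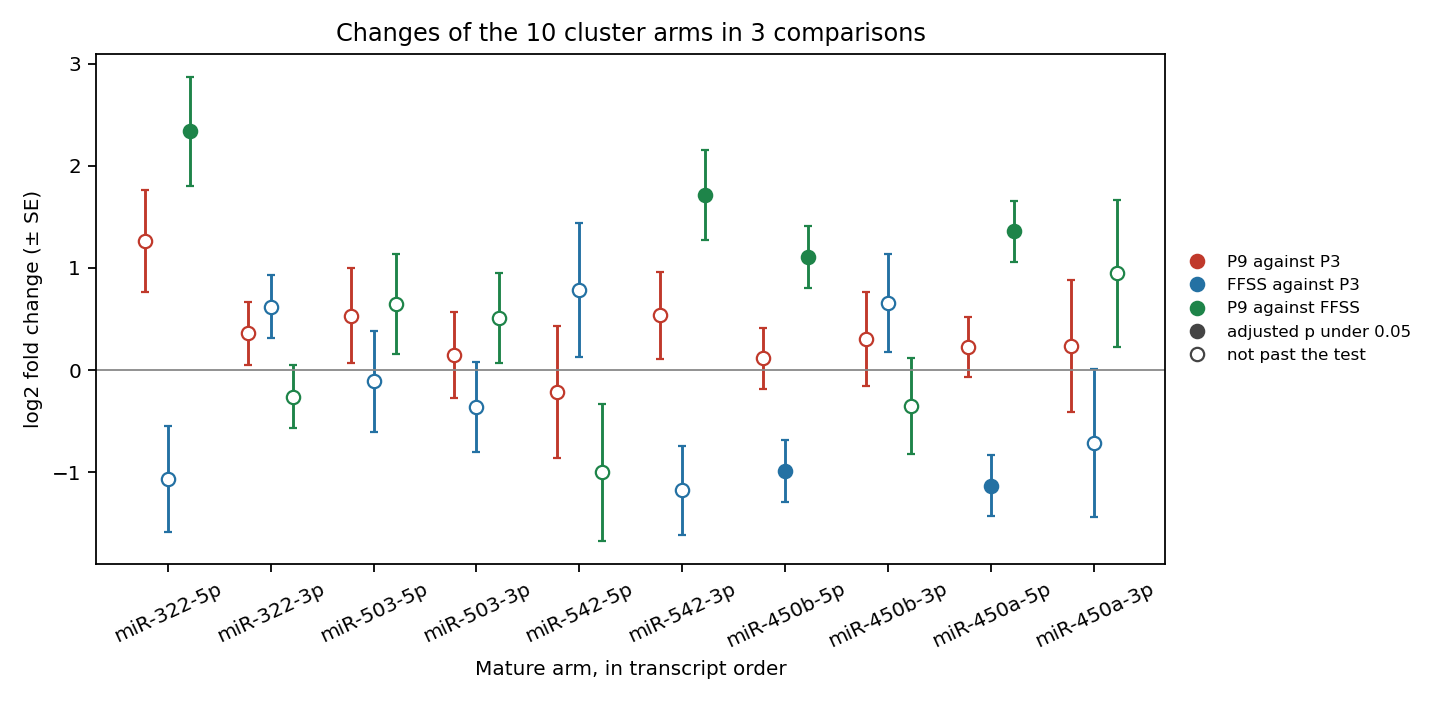
log2 fold change of each of the 10 arms, in the order of the hairpins, with bars of 1 SE; filled circles had an adjusted p under 0.05. Filled circles are found for miR-450b-5p and miR-450a-5p under shear stress and for miR-322-5p, miR-542-3p, miR-450b-5p and miR-450a-5p between P9 and FFSS.

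At passage 9 none of the 10 members passed. The leading value was that of miR-322-5p, with 14.9, 8.77 and 21.1 CPM in P3 and 56.6, 39.0 and 11.3 CPM in P9. P9 replicates 1 and 2 lay far above P3, and P9 replicate 3 lay within it. The log2 fold change was 1.27 (SE 0.50, unadjusted p = 0.0250, adjusted p = 0.186). Without P9 replicate 3 it was 1.68 (SE 0.37, adjusted p = 0.00613). It was then 1 of 10 members called, beside 11.3% of all miRNAs, a share like that of the whole table. Of 20 alternatives this was the only 1 that called miR-322-5p. Its log2 fold change was 0.87 without P9 replicate 1 (adjusted p = 0.482) and 1.05 without P3 replicate 2 (0.398).

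miR-542-3p showed the same pattern among the libraries, with 118, 90.1 and 40.4 CPM in P9 against 40.4 to 78.9 CPM in P3 (0.54, SE 0.42, adjusted p = 0.590). miR-450a-5p had 287, 267 and 150.0 CPM in P9, with replicates 1 and 2 above the P3 libraries and replicate 3 below all of them (0.22, SE 0.29, adjusted p = 0.778). miR-450b-5p had 153, 140.2 and 79.6 CPM, in the same order (0.12, SE 0.30, adjusted p = 0.918). Without P9 replicate 3 the values were 0.85 for miR-542-3p (adjusted p = 0.215), 0.44 for miR-450a-5p (0.420), 0.33 for miR-450b-5p (0.581) and 0.86 for miR-503-5p (0.241), and none of these passed. In P9 replicate 3, miR-322-5p, miR-503-5p, miR-542-3p and both miR-450 5p arms were each the lowest of their P9 values. Several lists of miRNAs from other tissues also differed in this library. The muscle list summed to 583 CPM, against 236 and 218 CPM in the other P9 libraries, and the list of 4 nervous system miRNAs to 1546 CPM, against 628 and 618 CPM. The endothelial pair summed to 491 CPM, against 297 and 275 CPM, whereas the 7 epithelial miRNAs summed to 25.2 CPM, against 77.7 and 75.4 CPM. The liver miRNA miR-122-5p had 22.9 CPM, against 3.94 and 3.43 CPM. The blood list did not set it apart, since it summed to 308 CPM there, to 301 CPM in replicate 2 and to 69.6 CPM in replicate 1.

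miR-322-3p did not follow the 5p arm: it had 72.8, 53.6 and 82.9 CPM in P9, and P9 replicate 3 was here the highest (0.36, SE 0.31, adjusted p = 0.596). miR-503-5p, with 8.27, 5.47 and 2.45 CPM, and miR-503-3p, with 8.14, 4.96 and 6.73 CPM, overlapped P3 and had log2 fold changes of 0.53 (SE 0.47) and 0.15 (SE 0.42). The sparse arms lay between -0.22 and 0.31.

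The count at passage 9 was thus 0 of 10 with edgeR, beside 7.29% of all 439 miRNAs (3.87% higher and 3.42% lower). At an unadjusted p under 0.05 it was 1 of 10, beside 17.3% of all. DESeq2 and limma-voom also called 0, where they called 10.5% and 7.29% of all. The groups overlapped for all 10 members, where 25.3% of all miRNAs did not overlap (11.2% higher and 14.1% lower). The median over the 10 was 0.27, against 0.06 over all tested. Of the 10 values 9 were above 0, beside 239 of all 439. None of the 10 passed, and arms of 1 hairpin are not independent values.

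Senescent and shear-stressed cells were compared directly, where the P3 libraries enter only through the shared spread, the row filter and the scaling. miR-322-5p was 2.34 higher in P9 than in FFSS on the log2 scale (SE 0.53, adjusted p = 0.00487), at 35.6 ± 22.9 against 7.34 ± 2.64 CPM (SD, n = 3). All P9 libraries lay above all FFSS libraries, though P9 replicate 3, at 11.3 CPM, was close to FFSS replicate 3, at 9.75 CPM. miR-542-3p was 1.71 higher (SE 0.44, adjusted p = 0.00953), at 82.7 ± 39.1 against 25.9 ± 9.38 CPM. miR-450a-5p was 1.36 higher (SE 0.30, adjusted p = 0.00429), at 235 ± 74.0 against 97.1 ± 3.06 CPM. miR-450b-5p was 1.10 higher (SE 0.30, adjusted p = 0.0140), at 124 ± 39.1 against 61.5 ± 9.38 CPM.

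The calls on miR-322-5p, miR-542-3p and miR-450a-5p held in all alternatives run, each fit without 1 library included. That on miR-450b-5p was lost only without FFSS replicate 3 (adjusted p = 0.0519). The value for miR-322-5p was 1.26 on log2(TPM + 10), a scale that understates changes at low levels. miR-322-3p stood at -0.26 (SE 0.31, adjusted p = 0.536), miR-503-5p at 0.64 (SE 0.49, adjusted p = 0.319) and miR-503-3p at 0.51 (SE 0.44, adjusted p = 0.380), and none of these passed. miR-503-3p did so without FFSS replicate 1 (1.18, adjusted p = 0.0416).

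In all, 4 of 10 members were called between P9 and FFSS, all higher in P9, beside 34.4% of all miRNAs, 22.6% higher and 11.8% lower. Without P9 replicate 3 the same 4 were called, beside 45% of all miRNAs. For the same 4 the groups did not overlap, beside 42.8% of all, 23% higher and 19.8% lower. The median over the 10 was 0.80, against 0.02 over all tested. miR-351-5p, from the middle of the cluster, went the same way, with 118 ± 34.6 against 68.0 ± 23.3 CPM (0.896, SE 0.32, adjusted p = 0.0457). Its groups overlapped and its call was lost in 13 alternatives, among them library size alone (adjusted p = 0.109) and the fits without P9 replicate 1 (0.120) or FFSS replicate 2 (0.120). Against P3 it did not pass at passage 9 (0.27) or under shear stress (-0.63).

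The ratio of the arms of 1 hairpin does not depend on how libraries are scaled. In miR-322 the 3p arm had more reads than the 5p arm in all 9 libraries. The 5p arm made up 21.8%, 12.7% and 27.7% of the reads of the hairpin in P3, and 4.22%, 8.65% and 10.6% in FFSS, so that FFSS lay below P3 throughout. In P9 it made up 43.8%, 42.1% and 11.9%, high in replicates 1 and 2 and under all P3 libraries in replicate 3. The 95% Wilson intervals were 40.7% to 46.9% for P9 replicate 1 and 9.84% to 14.4% for P9 replicate 3, so the gap within P9 was far wider than counting error.

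The log2 ratio of 5p to 3p reads was compared with limma over the 89 hairpins whose arms each averaged 20 counts or more. For miR-322 it was 2.40 higher in P9 than in FFSS (SE 0.66, adjusted p = 0.0496), 1 of 3 cluster hairpins tested, where 7.87% of the 89 were called. The call was lost in each fit that left out a library other than P9 replicate 3, up to an adjusted p of 0.183 without P9 replicate 2. It was also lost with 5 added to each count (0.0503), in a fit of only the compared groups (0.101) and when hairpins averaging 5 counts an arm were kept (0.0655). Without P9 replicate 3 the difference was 3.23 (adjusted p = 2.04e-04), in a fit that called 36% of the 89. Under shear stress the difference from P3 was -1.64 (SE 0.66, adjusted p = 0.123). It passed without P9 replicate 3 (0.0108), where 34.8% of the 89 did, and in a fit of P3 and FFSS alone (0.0227), where 23 of 88 did. At passage 9 the difference from P3 was 0.77 (SE 0.66, adjusted p = 0.989), and limma called 0 of the 3 cluster hairpins and 0 of the 89. At an unadjusted p under 0.05 it called 0 of the 3 there, beside 2.25% of the 89. Without P9 replicate 3 the difference was 1.59 (adjusted p = 0.300) and still 0 of 3 were called, with 2 of 3, miR-322 and miR-503, at an unadjusted p under 0.05, beside 11.2% of the 89. Under shear stress 0 of the 3 were called, and 2 of 3, miR-322 and miR-450b, had an unadjusted p under 0.05, beside 31.5% of the 89.

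**Figure D3:**
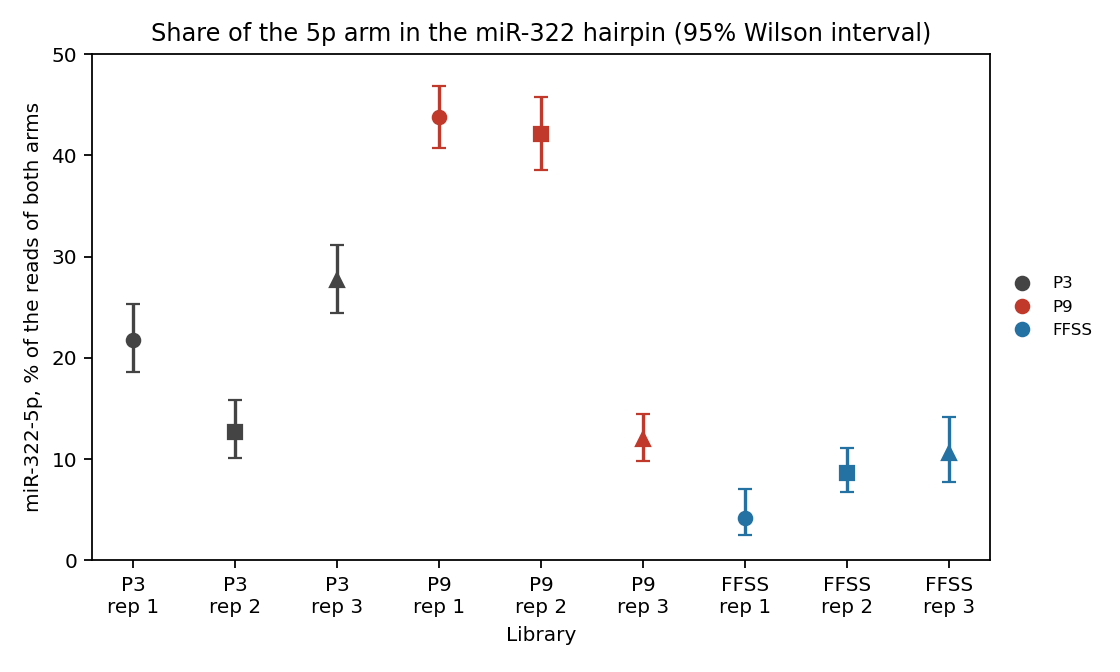
Share of miR-322-5p in the reads of both arms of its hairpin, in percent, for each library, with 95% Wilson intervals that cover counting error only. P9 replicates 1 and 2 stand at 43.8% and 42.1%, P9 replicate 3 at 11.9%, and the FFSS libraries between 4.22% and 10.6%.

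The arms of the other hairpins were less even or less well counted. In miR-503 both arms were near balance, with 35.2% to 42.4% of reads on the 5p arm in P3, 26.7% to 52.4% in P9 and 41.0% to 45.5% in FFSS. The differences of its log2 ratio were 0.28 at passage 9, 0.31 under shear stress and -0.03 between P9 and FFSS, with an SE of 0.43, and none passed. Here too the lowest share was that of P9 replicate 3, without which the differences were 0.78 at passage 9 (adjusted p = 0.387) and 0.48 between P9 and FFSS (0.299).

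miR-450b was read almost wholly from its 5p arm, at 96.4% to 99.0% in P3, 96.7% to 98.0% in P9 and 91.4% to 96.5% in FFSS. Its log2 ratio differed by -1.73 under shear stress (SE 0.52, adjusted p = 0.0710) and was not called, where 4.49% of the 89 hairpins were. It passed without P9 replicate 3 (0.0130, with 31 of 89 hairpins called) and in a fit of P3 and FFSS alone (0.0250, 23 of 88). It also passed without P3 replicate 1 (0.0415, 4 of 88) or FFSS replicate 2 (0.0446, 6 of 88) and with 5 added to each count (0.0390, 9 of 89). Between P9 and FFSS the difference was 1.39 (adjusted p = 0.125), and 1.58 without P9 replicate 3 (0.0235, with 32 of 89 called). The 3p arm behind these values had 13, 17 and 25 reads in the FFSS libraries. Any reads shared between the 5p arms of miR-450a and miR-450b also enter this ratio.

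miR-542 and miR-450a had means of 7.56 and 17.1 counts on their sparse arms and were not among the 89. The 5p arm of miR-542 took 0.99% to 2.99% of reads in P3, 0.84% to 1.20% in P9 and 2.99% to 8.86% in FFSS, where it had 5 to 10 reads. Over the 128 hairpins averaging 5 counts or more an arm, its log2 ratio in P9 minus that in FFSS was -2.63 (SE 0.54, adjusted p = 0.0215), 1 of 5 cluster hairpins called at that limit, beside 6.25% of the 128. miR-450a kept 98.6% to 98.9% of reads on its 5p arm in P3, 98.6% to 98.9% in P9 and 97.1% to 100% in FFSS.

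Along the cluster, neighbouring hairpins did not all have the same values. Against the P3 mean of log2 CPM, FFSS libraries stood at -1.13, -1.08 and -1.04 for miR-450a-5p and at -1.21, -0.83 and -0.78 for miR-450b-5p, all below the P3 range. At the 5′ end the arms with fewer reads spread out: miR-503-5p stood at 0.57, -0.41 and -0.55 and miR-322-5p at -1.63, -0.85 and -0.52. miR-322-3p, from the same end and with more reads, did not, at 0.87, 0.55 and 0.56, all above the P3 range. In FFSS replicate 1, the shallowest, miR-322-5p was the lowest and miR-503-5p, only 220 bases further on, the highest of the FFSS values. P9 replicates 1 and 2 stood at 2.01 and 1.48 for miR-322-5p, and at 0.48 and 0.37 for miR-450a-5p at the other end.

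**Figure D4:**
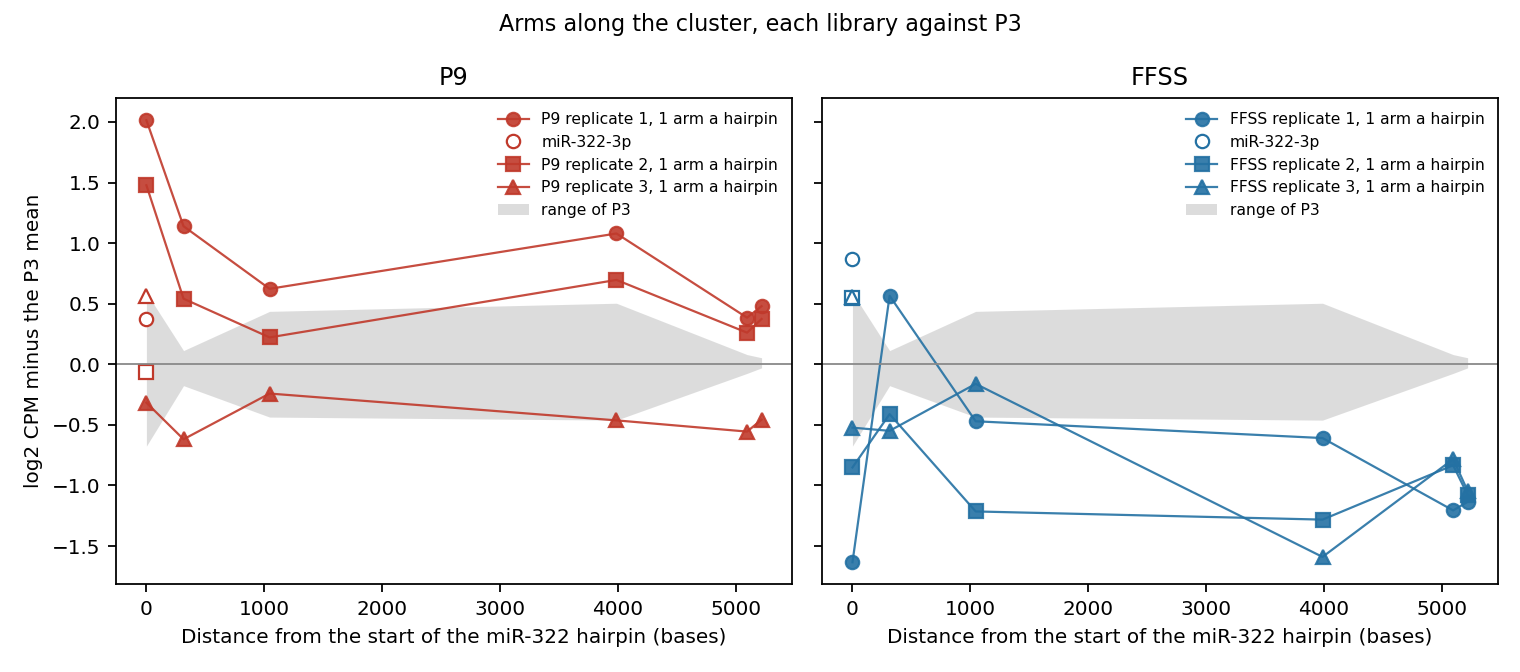
log2 CPM of each P9 (red) and FFSS (blue) library minus the P3 mean, for 1 arm of each hairpin (3p for miR-542, 5p for the others) against its distance in bases from the start of the miR-322 hairpin; the grey band is the range of P3 and open symbols are miR-322-3p. Among the filled symbols P9 replicates 1 and 2 lie above 0 and P9 replicate 3 below 0, and for miR-450a-5p the FFSS libraries lie between -1.13 and -1.04.

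Ratios between hairpins were compared over miR-322-5p with an exact two-sided permutation test, for which 3 against 3 libraries cannot give a p under 0.1. Over 15 such ratios and comparisons the smallest adjusted p was 0.375, so none passed or could pass. The log2 ratio of miR-542-3p to miR-322-5p was 1.86, 2.20 and 1.90 in P3 and 1.05, 1.21 and 1.84 in P9, without overlap (difference -0.62, exact permutation p = 0.1). In FFSS it was 2.97, 1.55 and 0.91, a wide spread around the P3 values. The log2 ratio of miR-503-5p to miR-322-5p was -2.76, -2.82 and -2.17 in P9 and 0.29, -1.44 and -1.87 in FFSS (difference -1.58, exact permutation p = 0.1). For miR-450a-5p over miR-322-5p the differences were -0.92 at passage 9 and -0.10 under shear stress, with overlap in both.

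Ratios were also set against miR-450a-5p, a choice made after seeing the data and given without a test. There miR-322-3p and miR-503-5p had higher ratios in FFSS than in P3 without overlap. Those of miR-322-5p, miR-351-5p, miR-542-3p and miR-450b-5p overlapped. The fall of miR-450a-5p itself (log2 fold change -1.13) enters each ratio, where miR-503-5p stood at -0.11 and miR-322-3p at 0.62. The log2 ratio of miR-503-5p was -5.67, -5.90 and -5.70 in P3 and -4.04, -5.08 and -5.21 in FFSS, a difference of 0.98. That of miR-322-3p was -1.92, -1.74 and -1.95 in P3 and 0.13, -0.25 and -0.27 in FFSS, a difference of 1.74. In P9 it was -1.98, -2.31 and -0.86, where replicates 1 and 2 lay just below P3 and replicate 3 lay between P3 and FFSS. In reads of the 10 arms, miR-322-3p thus took 10.9% to 13.6% in P3, 28.2% to 32.8% in FFSS and 10.2%, 8.83% and 21.9% in P9. The ratio of miR-450b-5p to miR-450a-5p reads was nearly fixed, at 0.548, 0.578 and 0.578 in P3 and 0.532, 0.525 and 0.531 in P9. It was 0.541, 0.673 and 0.681 in FFSS, where replicates 2 and 3 were higher than in the other libraries.

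Since miR-322-5p shares its seed with miR-16-5p, miR-15b-5p, miR-195-5p and miR-497-5p, its share of the reads with that seed was taken. In P3 it was 1.44%, 1.34% and 1.74%. P9 had 4.95%, 4.79% and 2.49%, and FFSS had 0.334%, 0.574% and 0.896%. The 3 groups did not overlap: P9 was highest, FFSS lowest, and P9 replicate 3 again nearest to P3. The level of miR-322-5p itself overlapped P3 in both P9 and FFSS. In P9 replicate 3 it had 11.3 CPM, within the P3 range of 8.77 to 21.1 CPM. All reads with the seed summed to 451 CPM in that library, against 653 to 1213 CPM in P3. miR-16-5p had 346 CPM there, against 511 to 907 CPM in P3. The share is a score over members and has no test. Most of these reads came from miR-16-5p, at 728 ± 201 CPM in P3, 649.9 ± 295 CPM in P9 and 946 ± 163 CPM in FFSS (SD, n = 3). With miR-503-5p added, which matches to base 7, the mean shares were 1.91 ± 0.138% in P3, 4.69 ± 1.45% in P9 and 0.884 ± 0.213% in FFSS.

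The share also depends on the other miRNAs of the seed. Of the 5 listed outside the cluster 4 could be tested. At passage 9 miR-195-5p fell by 2.58 (SE 0.36, adjusted p = 6.52e-04) and miR-497-5p fell by 2.56 (SE 0.45, adjusted p = 0.00346), 2 of 4, both lower, beside 7.29% of all miRNAs called and 3.42% lower. miR-16-5p stood at -0.14 (SE 0.35) and miR-15b-5p at -0.0003 (SE 0.30) there. Under shear stress 0 of the 4 passed with edgeR, beside 20.5% of all miRNAs. At an unadjusted p under 0.05 it was 1 of 4, miR-195-5p (0.95, adjusted p = 0.0674), beside 159 of all 439. miR-195-5p passed there in 4 of 20 alternatives, and its adjusted p reached 0.232 in the others. These were upper-quartile factors (adjusted p = 0.0475), DESeq2 (0.0226), and the fits without P3 replicate 3 (0.0452) and without P9 replicate 3 (0.0485). miR-15a-5p, with at most 8 reads in a library and no RefSeq entry in the table used, is not in the sums.

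**Figure D5:**
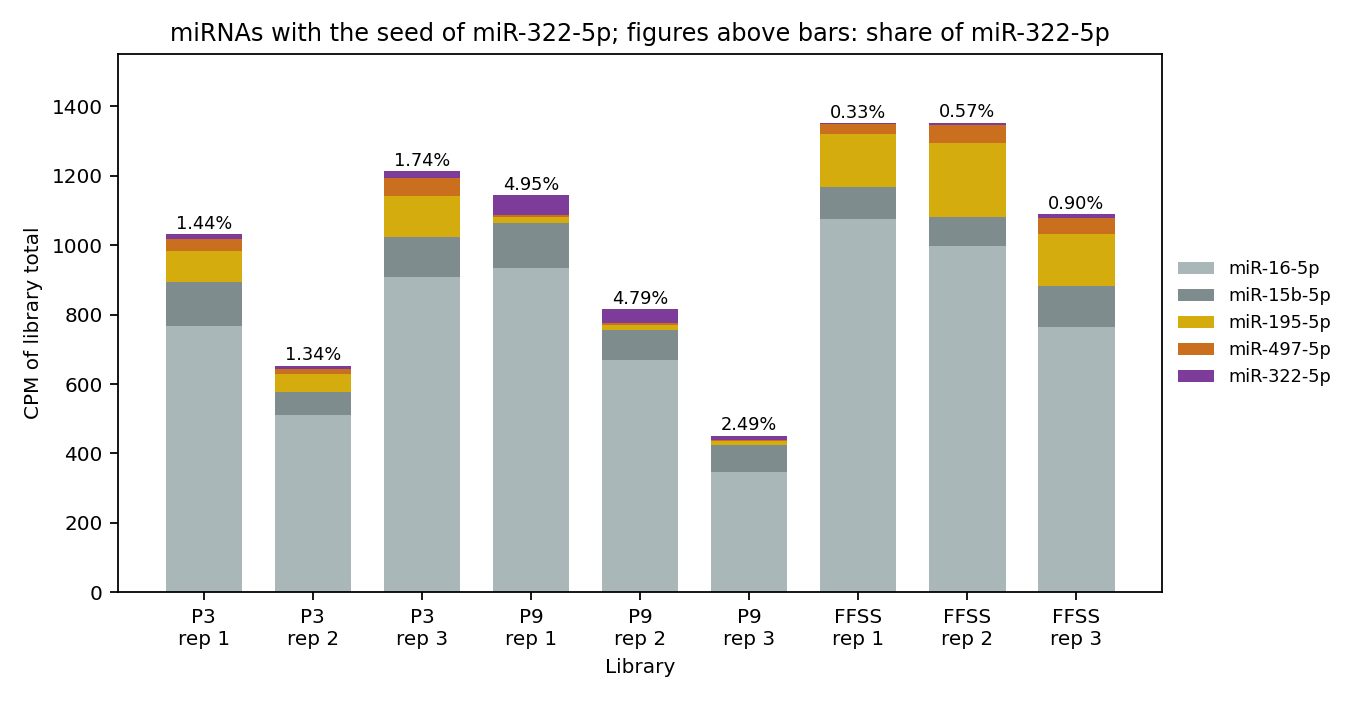
Level in CPM of the 5 miRNAs with the seed of miR-322-5p in each library, stacked from 0, with the share of miR-322-5p in percent above each bar. The purple part, miR-322-5p, is widest in P9 replicates 1 and 2, at 4.95% and 4.79%, and narrowest in FFSS replicate 1, at 0.33%.

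Outside the cluster and its seed family, the miRNAs whose levels over the 9 libraries were most like those of miR-322-5p were miR-31a-5p (Pearson r of 0.97), miR-143-5p (0.96) and miR-107-3p (0.92). For miR-542-3p they were miR-21-5p (0.93), miR-20a-5p (0.93) and miR-17-5p (0.90). Of 181 miRNAs with a mean of at least 50 CPM, those of the cluster and seed family and any without a rat miRNA name were not ranked. The r values describe 9 libraries in 3 groups that also share depth and library making, and they have no test. miR-31a-5p had 859, 657 and 273 CPM in P9 and 201 to 334 CPM in FFSS, with the low P9 value again in replicate 3. miR-20a-5p, of the proliferation-linked miR-17-92 cluster, had 316, 232 and 83.0 CPM in P9 and 48.0 to 71.6 CPM in FFSS. Within the cluster, miR-322-5p had an r of 0.83 with miR-542-3p and 0.84 with miR-450a-5p, but -0.52 with miR-322-3p from its own hairpin. In these bulk libraries fewer cells of a type and less of a miRNA per cell cannot be told apart.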

How the data were processed

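Small RNA libraries, with inserts of 18 to 40 bp and single-end reads, were made from total RNA, per the labels' protocols. The table the authors deposited holds, per the file headers, the read count of 726 miRNA rows in each library, and a TPM value that equals CPM, the count scaled to the library's total, within 4.85e-05. The submitters' processing notes name Bowtie and Rnor_6.0. The counting program and the miRNA release are not given there. Each value column was matched to a label.

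Differences in counts were tested with edgeR 4.0.16 (robust quasi-likelihood test, TMM, filterByExpr, which kept 439 rows and all 10 members) in R 4.3.3, in 1 fit of 9 libraries, with Benjamini-Hochberg adjustment over the 439 and a call at an adjusted p under 0.05. Arm ratios, log2((5p + 0.5)/(3p + 0.5)), were compared with limma 3.58.1. DESeq2 1.42.0 was an alternative. A log2 difference takes the first group named minus the second. edgeR gives no SE, so the SE of its values is the absolute log2 fold change over the square root of the test's F. Poisson floors and Wilson intervals cover counting error only. Named are all members, miR-351, the miR-15/16 seed list and the 3 miRNAs most correlated with miR-322-5p and with miR-542-3p. Sequences of all 12 cluster arms were matched by name in RefSeq. Both tests were tested on simulated data. Summing the miR-450 5p rows, ratios over miR-450a-5p and counting miR-15a-5p were added after seeing the data. The members and lists were chosen with earlier results of these data known.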

Additional observations from a re-analysis of the deposited data

How the results depend on the processing

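Between P9 and FFSS the count of cluster members called, 4, was 3 to 5 under all alternatives, including each fit without 1 library. At passage 9 it stayed 0 except without P9 replicate 3, so fits without 1 library gave 0 to 1. Under shear stress the count of 2 became 1 with library size alone, with rows averaging 50 counts or more, in limma-trend on log2(TPM + 1) or log2(TPM + 10), with the replicate block and with both miR-450 5p rows summed. It became 3 with no filter and in DESeq2, and ranged from 0 to 4 without 1 library. Arm ratios called under shear stress, 0, became 1 with 5 added to each count and with the replicate block, 2 in a fit of only the compared groups, and 0 to 2 without 1 library. Between P9 and FFSS the 1 arm ratio called became 0 in each of those settings, and 0 to 2 without 1 library. At passage 9 that count stayed 0 in all. For these changes the cause was not tested. Deviations of same-numbered libraries from their group means had correlations from -0.47 to 0.12. With 3 libraries a group, these values cannot decide if same-numbered libraries share an animal or culture, which the labels do not say. With the replicate block miR-450b-5p under shear stress had an adjusted p of 0.0663 and the arm ratio of miR-450b one of 0.0353.

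Signs turned only for values that did not pass. At passage 9 miR-15b-5p was 0.0076 with no filter, 0.11 with rows averaging 50 counts or more, 0.022 with limma-voom and 0.024 with the replicate block. Between P9 and FFSS it was -0.014 with upper-quartile factors, -0.0050 on log2(TPM + 1) and -0.0032 on log2(TPM + 10), where miR-351-3p was -0.0035. The log2 ratio of miR-450b-5p to miR-322-5p under shear stress was -0.11 with 5 added to each count.

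Without 1 library the ranges that crossed 0 were, at passage 9, -0.60 to 0.18 for miR-542-5p, -0.19 to 0.15 for miR-15b-5p, -0.40 to 0.15 for miR-16-5p, -0.0035 to 0.78 for the arm ratio of miR-503 and -0.76 to 0.14 for that of miR-450b. Under shear stress they were -0.66 to 0.13 for miR-503-5p, -0.029 to 1.22 for miR-542-5p and -0.057 to 0.73 for miR-497-5p. Over miR-322-5p the log2 ratio there ran from -0.0086 to 0.73 for miR-351-5p, from -0.75 to 0.27 for miR-542-3p, from -0.21 to 0.38 for miR-450b-5p and from -0.38 to 0.22 for miR-450a-5p. Between P9 and FFSS the ranges were -0.41 to 0.052 for miR-322-3p, -0.23 to 0.61 for miR-351-3p, -0.31 to 0.48 for the arm ratio of miR-503 and -0.89 to 0.13 for the log2 ratio of miR-542-3p to miR-322-5p. Precision is limited by depth for the 5 arms under 10 CPM, which had 0 to 63 reads in a library.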
